A study of Mus musculus with 2 samples.

Results

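Genes of dopamine reception and monoamine metabolism were examined on arrays of MIN6 cells, a mouse insulinoma line that keeps many properties of pancreatic beta cells. The 10 genes comprise 4 dopamine receptors (Drd2, Drd3, Drd4 and Drd5), the synthesis enzymes Th, Ddc and Tph1, the vesicular transporter Slc18a2, and the monoamine oxidases Maoa and Maob. The list was fixed by gene, with earlier results of these data known. Every probe whose RefSeq accession maps to a listed gene was taken, whatever its signal. This gave 12 probes for these 10 genes of 20653 named genes with a probe. The FTO group was MIN6 cells transduced with a lentivirus made from pLVX-IRES-ZsGreen carrying mouse FTO, and the control group was MIN6 cells transduced with the virus of the empty vector, each for 48 h, so the fluorescent reporter and the viral handling were common to both. The cells were at passages 15 to 20, a transgenic C57Bl/6 insulinoma line and not primary islets. Each group was represented by 1 single-color Agilent array, and therefore the differences below have no replicates behind them and carry no p-value. The 2 arrays are called the FTO array and the control array after their labels.

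Beta cells make, store and release monoamines alongside insulin. Tyrosine hydroxylase (Th) carries out the rate-limiting step from tyrosine to L-DOPA, tryptophan hydroxylase (Tph1) the corresponding step from tryptophan toward serotonin, and aromatic L-amino acid decarboxylase (Ddc) completes both routes. The vesicular monoamine transporter VMAT2 (Slc18a2) loads the products into secretory granules, and the monoamine oxidases of the outer mitochondrial membrane break them down with release of hydrogen peroxide. Dopamine acts back on beta cells, where D2-type receptors (Drd2, Drd3 and Drd4) couple to inhibitory G proteins, lower cAMP and restrain glucose-stimulated insulin secretion, whereas D1-type receptors (Drd1 and Drd5) couple to stimulatory G proteins.

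The sequences behind these genes are shown for the receptor whose signal differed most and for the pair of genes that share a cAMP-linked motif. The study followed Drd2 by quantitative PCR with the primer pair below, an assay apart from the array, whose values were not used here.
Drd2 forward primer: atgctgctcaccctcctcat
Drd2 reverse primer: tggtctgcaaagccttctctc

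RefSeq promoter windows of 300 bases, from 250 before to 50 after an annotated start on GRCm38.p6, were held for 9 of the 10 genes (11 windows). The cAMP response element TGACGTCA, which reads the same on either strand and is bound by CREB, occurred in the windows of Th and Slc18a2 and in 1.79% of all 32851 windows. It begins 45 bases before the start of Th and 4 bases before the start of Slc18a2. The GC box GGGCGG, searched on both strands, lay in the windows of 7 genes and in 35.7% of all windows, and the Drd2 window held 2 of them, 23 CpG dinucleotides against a median of 7 over all windows, and no cAMP response element. These matches describe letters in a window and no binding was measured. In the lines below the capitals mark the cAMP response element and GC boxes.
Drd2, chr9:49340153-49340452, plus strand: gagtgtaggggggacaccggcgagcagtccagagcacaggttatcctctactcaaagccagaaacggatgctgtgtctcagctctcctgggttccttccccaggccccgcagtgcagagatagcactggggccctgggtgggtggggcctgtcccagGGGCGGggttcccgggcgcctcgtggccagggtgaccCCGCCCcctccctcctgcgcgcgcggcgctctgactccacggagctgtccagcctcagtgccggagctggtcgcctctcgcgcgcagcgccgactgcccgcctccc
Th, chr7:142899946-142900245, minus strand: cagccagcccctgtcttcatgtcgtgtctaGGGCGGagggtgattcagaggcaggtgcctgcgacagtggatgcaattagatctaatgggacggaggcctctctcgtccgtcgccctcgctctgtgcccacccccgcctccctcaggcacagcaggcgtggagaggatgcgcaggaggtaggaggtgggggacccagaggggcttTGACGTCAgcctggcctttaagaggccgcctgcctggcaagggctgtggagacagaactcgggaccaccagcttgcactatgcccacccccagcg
Slc18a2, chr19:59260628-59260927, plus strand: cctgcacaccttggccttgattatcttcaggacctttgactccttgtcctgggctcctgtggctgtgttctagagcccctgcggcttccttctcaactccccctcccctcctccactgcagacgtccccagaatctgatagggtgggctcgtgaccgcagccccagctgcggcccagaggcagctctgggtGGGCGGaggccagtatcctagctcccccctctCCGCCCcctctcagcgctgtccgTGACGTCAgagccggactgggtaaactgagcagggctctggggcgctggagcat

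Signals are given as the deposited background-subtracted intensities, which were not scaled between arrays. The median over all non-control spots was 292 on the FTO array and 237 on the control array, so an equal gene reads somewhat brighter on the former. Differences are FTO minus control on the log2 scale after quantile normalization, each with the spot error, which is the error the scanning software attaches to both spots and covers no variation between cultures. Tested probes are those that the software flags as well above background on 1 array or both, and called probes are tested ones whose difference passed 2-fold. The level of a probe was not set against that of another probe, because hybridization differs between probes. The single probe of Fto read 7301 on the FTO array and 5179 on the control array, a difference of 0.06 with a spot error of 0.20, so the overexpression that the labels state was not seen at this probe, and the direction of each difference is taken from the labels. Whether that probe reads the transgene RNA was not tested. Of the 8 beta cell markers, all were well above background on both arrays, and 0 passed 2-fold. All 3 alpha cell markers were above background as well. Lists of other cell types ranged from all 3 fibroblast markers on both arrays to 1 of 3 duct markers on the control array. The flag therefore does not name the cell types present, and in bulk RNA fewer cells of a kind and less RNA in each cell cannot be told apart.

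Among the members, Drd2 was lower on the FTO array and no other gene passed 2-fold. Over all probes, 82.0% were well above background on the FTO array and 84.9% on the control array, so detection does not set the members apart. Of the 10 genes, 9 were well above background on both arrays and entered the comparison with 11 probes, while Drd5 was above background on neither. Thus 1 of 9 tested genes was called, against 3.21% of all named genes tested. By probe, 1 of 11 was called, against 3.48% of all probes tested in either direction and 2.18% in the lower direction. The members were chosen with earlier results of these data known, so these shares describe the list and are no independent evidence about it. The median difference of the 11 probes was 0.05, against 0.01 over all tested probes. Differences ran from -1.13 to 0.32, with 7 probes above 0 and 4 below, and 9 of the 11 lay within 1 spot error of 0.

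**Figure D1:**
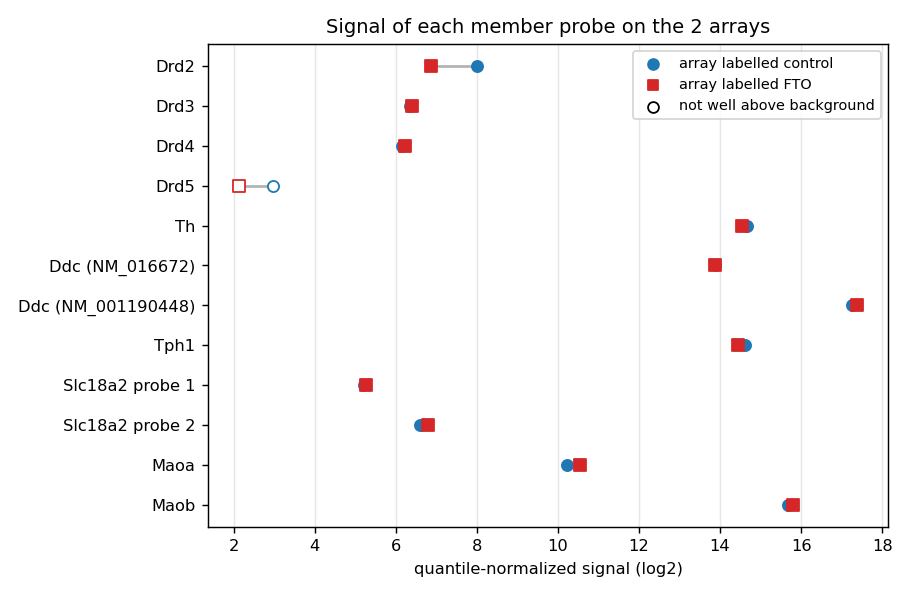
Quantile-normalized log2 signal of the 12 probes (x axis) by gene (y axis), with the control array as circles, the FTO array as squares, and open symbols where the probe was not well above background. Only the symbols of Drd2 and of the undetected Drd5 stand clearly apart, with the FTO array lower in each.

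Drd2 encodes the D2 receptor, an inhibitory dopamine receptor of beta cells. Its probe (NM_010077) read 124 on the FTO array and 231 on the control array. This is the reverse of the general brightness of the arrays, and after normalization the values were 6.86 and 7.99, a difference of -1.13 with a spot error of 0.21, or 2.19-fold lower. The raw median of the spot pixels was 191 over a local background of 32 on the FTO array and 298.5 over 27.5 on the control array, so the local background differed little between the arrays and the spots themselves differed. The difference was 5.47 times the spot error. It fell to -0.81, short of 2-fold, when the raw spots were background-corrected by normexp, which compresses dim signals, and reached -1.32 when the arrays were scaled by their 75th percentile.

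The Drd2 spot lies on a part of the FTO array where repeated spots lost signal. The surface was divided into 35 blocks, and the spots of 79 probes printed 10 times each, with a median log2 signal of 4.5 to 8 on the control array, were set against the median of their own probe. In the block of Drd2 the share of such spots over 0.5 below their median was 34.8% on the FTO array and 0% on the control array. Within 15 rows and 6 columns of the Drd2 spot, 3 of 8 repeated spots had lost this much on the FTO array and 0 of 8 on the control array. The Drd2 block was not lower as a whole, since its 1030 tested probes had a median difference of 0.04, and 3.50% of them were called lower and 4.85% called higher. Of 148 probes in that block within 1 log2 unit of the mean Drd2 signal, the median difference was -0.05, the 10th percentile was -0.92, and 11 were as low as Drd2 or lower. Subtracting the block median left Drd2 at -1.17. No other probe of Drd2 and no second array was present to separate the transcript from the location, so the part of the surface in the Drd2 difference was not tested.

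**Figure D2:**
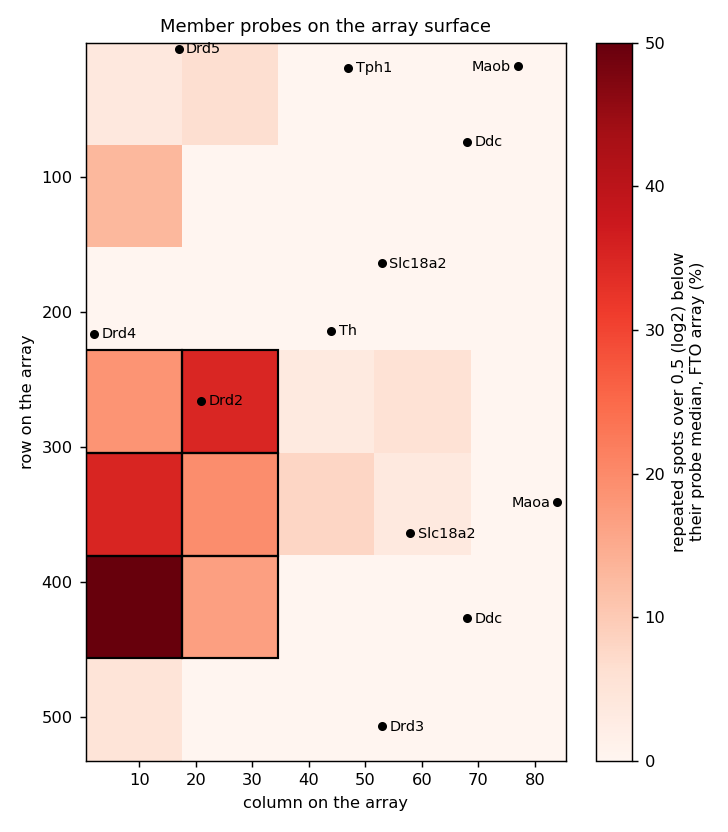
The array surface by column (x axis) and row (y axis), colored by the percent of repeated spots in each block that fell over 0.5 on the log2 scale below their probe median on the FTO array. Black outlines mark the 6 blocks at 15% or more, and the dots are the member probes, of which only Drd2 falls inside an outline.

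Drd3 and Drd4, the other D2-type receptors, differed by less than the spot error. The Drd3 probe read 90.1 on the FTO array and 76.96 on the control array, a difference of 0.05 with a spot error of 0.22. The Drd4 probe read 79.1 and 67.2 in the same order, a difference of 0.07 with a spot error of 0.22. Their spots lie outside the outlined blocks, and none of the repeated spots near them had lost signal on either array. With 75th percentile scaling both fell below 0, to -0.20 for Drd3 and -0.19 for Drd4, still far from 2-fold. Both receptors were detected on each array, and neither approached the difference of Drd2.

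Drd5, a D1-type receptor, read 4.11 on the FTO array and 8.06 on the control array and was well above background on neither, so no fold is given. Drd1, the other D1-type receptor and not among the 10 genes, read 3.58 and 6.70 and was likewise not well above background. Transcripts of D1-type receptors were thus not detectable by these probes, whereas all 3 D2-type receptors were.

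The synthesis enzymes gave bright signals that hardly differed. Th read 27576 on the FTO array and 22309 on the control array, a difference of -0.13 with a spot error of 0.20. Tph1 read 25857 and 21369, a difference of -0.17 with a spot error of 0.20. Both were slightly below 0 under each of the 7 other settings that gave them a value, between -0.20 and -0.06, and never reached the spot error. Ddc had probes for a pair of RefSeq transcripts. The NM_016672 probe read 17563 and 12915, with a difference that rounds to 0.00 (-0.0042), and the NM_001190448 probe read 181183 and 147888, a difference of 0.12. Each had a spot error of 0.20, so the probes did not part from one another beyond it. Whether each probe reads a single transcript was not tested.

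Slc18a2, which stocks granules with monoamines, had 2 probes for the same transcript, both well above background at low signal. Probe 1 read 39.4 on the FTO array and 36.2 on the control array, a difference of 0.03 with a spot error of 0.25. Probe 2 read 119 and 91.0, a difference of 0.19 with a spot error of 0.21. With 75th percentile scaling they became -0.30 and -0.04, so the sign of Slc18a2 depends on the scaling. No change was detectable at this signal.

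Maoa had the highest difference of the 9 tested genes, below 2-fold. Its probe read 1713 on the FTO array and 1050 on the control array, a difference of 0.32 with a spot error of 0.20, or 1.25-fold. It stayed between 0.25 and 0.32 under every other setting that gave it a value. Of 14914 probes well above background on both arrays with a mean log2 signal over 10, 1.64% had a difference at least as high. Maob, the related oxidase encoded beside Maoa on the X chromosome, read 65206 and 45797, a difference of 0.11 with a spot error of 0.20. Both oxidases were above 0 in all settings tried, and Maob stayed within its spot error.

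**Figure D3:**
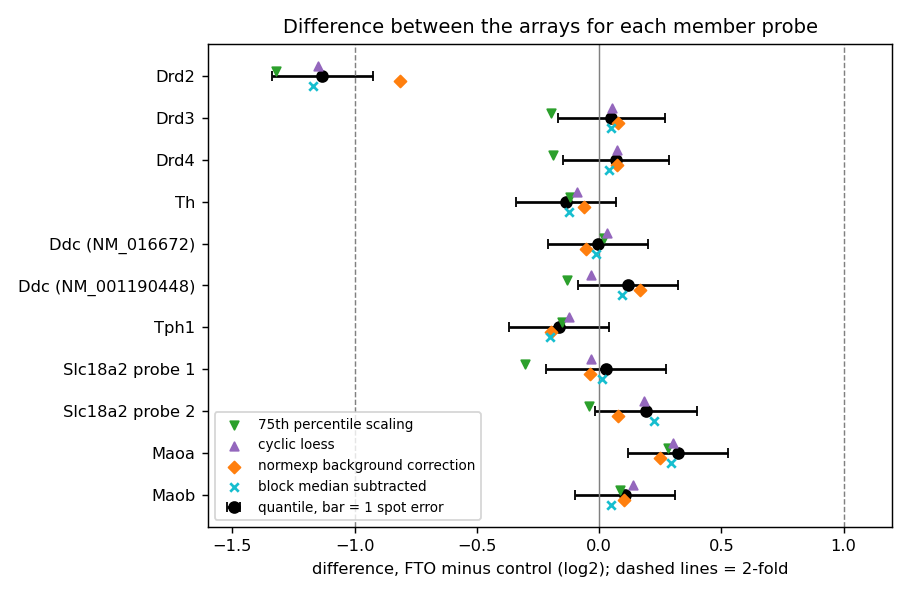
Difference between the arrays, FTO minus control on the log2 scale (x axis), for the 11 tested probes (y axis), with the spot error as a bar on the quantile-normalized value and other settings as colored symbols. Drd2 lies past the dashed 2-fold line in all but the normexp setting, and every other probe stays between -0.30 and 0.32.

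The wider pathway was read from 5 lists of 86 genes that exclude the 10 members, of which 85 had a probe and 74 were tested. In these lists 1 gene was called higher and 0 lower, which is 1.35% of the tested genes against 3.21% of all named genes, with a median difference of -0.0029. The called gene was Adcy5, an adenylyl cyclase that D2-type receptors inhibit. Its called probe read 18.5 on the FTO array and 6.33 on the control array, where it did not stand above background, which makes it at least 1.84-fold higher. Its other probes, above background on both arrays, had differences of 0.04 and 0.17. With the dim signal raised to the lowest signal of any probe above background on that array, no gene of these lists passed 2-fold.

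No tested gene in the list of dopamine receptors and transport passed 2-fold. Of its 6 genes, 4 were tested and 0 called, against 3.21% of all named genes tested. These 4 were all transporters, since Drd1, the only receptor of that list, was not tested. The plasma membrane dopamine transporter Slc6a3 read 57.7 on the FTO array and 71.2 on the control array, a difference of -0.46 with a spot error of 0.24, the lowest of that list. The second vesicular monoamine transporter, Slc18a1, read 2830 and 1805, a difference of 0.26 with a spot error of 0.20, the highest of that list. The noradrenaline transporter Slc6a2 was well above background on neither array.

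All 18 tested genes of the enzyme list stayed below 2-fold, a limit that 3.21% of all named genes tested passed. Their median difference was 0.02. Gch1, which starts the synthesis of the tetrahydrobiopterin that Th and Tph1 require, had differences of 0.04 and 0.17 at its probes. Dbh, which turns dopamine into noradrenaline, read 391 on the FTO array and 315 on the control array, a difference of -0.01. The lowest was Aldh1a1 at -0.76, an aldehyde dehydrogenase marking midbrain dopamine neurons, and the highest was Aldh1a2 at 0.34.

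Among the serotonin receptors 8 of 14 were tested and 0 called. With 3.21% of all named genes called, 0 among so few genes does not set this list apart. They ran from -0.83 for Htr3a, the ion channel receptor that depolarizes cells, to 0.45 for Htr5b. Of the adrenergic receptors 8 of 9 were tested and 0 called, to which the same limit applies. Over probes above background on both arrays these ran from -0.55 for Adra1b to 0.41 for Adra1d, whose other probe was at -0.31. The Adra1d probe at 0.41 read 18.0 on the FTO array and 13.4 on the control array, with a spot error of 0.38. It lies in an outlined block and fell to -0.001 with 75th percentile scaling. The Adra1b probe at -0.55 read 55.6 on the FTO array and 72.9 on the control array. Its other probe read 34613 and 28968, a difference of -0.18 with a spot error of 0.20. Adra2a, the inhibitory adrenergic receptor of beta cells, read 48340 and 35719, a difference of 0.02.

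The list of D2-type receptor signalling held 38 genes, of which 36 were tested. Besides Adcy5, the extremes over probes above background on both arrays were Gnaz at -0.9996, an inhibitory G protein subunit just short of 2-fold, and Adcy8, a calcium-stimulated cyclase, at 0.63 with a spot error of 0.43. A second Gnaz probe gave 0.00. The inhibitory subunits Gnai1, Gnai2 and Gnai3 had differences of 0.15, -0.20 and -0.32, and Arrb2, which desensitizes the D2 receptor, -0.17.

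**Figure D4:**
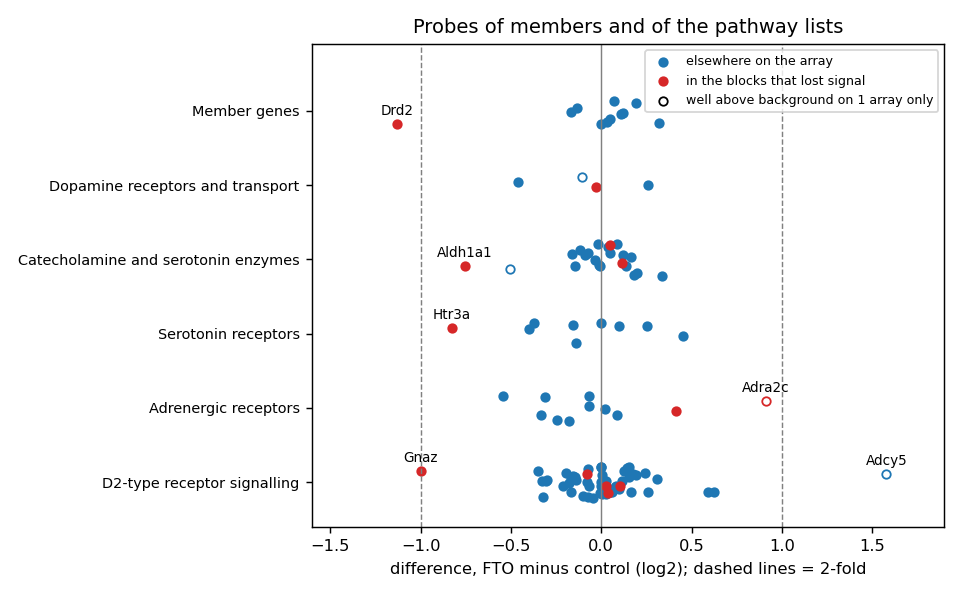
Difference between the arrays, FTO minus control on the log2 scale (x axis), for each tested probe of the members and of the 5 pathway lists (y axis). Red symbols lie in the 6 outlined blocks of lost signal and open symbols mark probes above background on 1 array only, and the 4 filled symbols below -0.7 are all red.

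Most of the lowest probes lay in the outlined blocks. The members and the pathway lists held 109 probes well above background on both arrays, of which 12 lay in the 6 blocks. Those below -0.7, a limit chosen after the values were seen, numbered 4, namely Drd2, Gnaz, Htr3a and Aldh1a1, and these 4 lay in the blocks. With the probes of all marker lists added there were 140 probes, 20 of them in the blocks, and 7 fell below -0.7, of which 5 lay in the blocks and 2 elsewhere. The added ones were Pitx3, a transcription factor of midbrain dopamine neurons, inside the blocks, and outside them both probes of Amy2a5, a pancreatic amylase, at -0.72 and -0.71. The Pitx3 probe read 432 on the FTO array and 889 on the control array, a difference of -1.39 with a spot error of 0.20. Over the whole array, 8.10% of probes in these blocks with a mean log2 signal of 6 to 8, above background on both arrays, were called lower, against 0.540% elsewhere. The Gnaz probe at 0.00 lies outside the blocks. With the 6 blocks left out, 8 member genes remained and 0 of them passed 2-fold. This was fixed in advance, since Drd2 was the only member past 2-fold and the only member in the blocks.

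Markers of cells that could add monoamine transcripts were mixed. In the list for catecholamine neurons and chromaffin cells, 4 of 6 genes were well above background on each array, with Slc6a2 among those not above background. The summed signal of the list was 946 on the FTO array and 1340 on the control array. Pitx3, in an outlined block, accounts for 432 and 889 of these sums. In the list for enterochromaffin cells and serotonin neurons, 3 of 4 genes were above background on the FTO array and 4 of 4 on the control array, with sums of 5690 and 4890. Such sums are of unscaled signals, for which the median spot read 292 on the FTO array and 237 on the control array. A higher sum on the FTO array is therefore no sign of more RNA. Fev read 2431 and 1843 and Tph2 640 and 459, with differences of 0.02 and 0.14. The other genes of that list were below 0. Lmx1b had differences of -0.50 at a probe in an outlined block and -0.35 at a probe outside. Slc6a4, above background on the control array only, read 10.5 and 11.3, a difference of -0.11. The part of such cells in the member signals was not tested.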

How the data were processed

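Total RNA was labeled with Cy3, hybridized to Agilent mouse arrays and extracted by the authors with Feature Extraction 11.0.1.1. Both arrays lay on 1 slide. The deposited intensity of each spot has the local background subtracted and the surface trend removed, without scaling between arrays. The deposited log2 values of the authors, quantile normalized in GeneSpring GX, served as an alternative. The deposited flags for signal well above background were taken as they stand. Here control spots and spots flagged as outliers (148 and 141) were left out, the log2 values of the remaining spots of each of 39417 probes were averaged, and quantile normalization was done with limma 3.58.1 in R 4.3.3. Later steps used Python 3.11.15, pandas 2.3.3, numpy 2.4.6 and matplotlib 3.10.9. The normalization was tested on simulated data made from the control array. The differences put in were well past 2-fold and no local loss of signal was simulated. Differences near 2-fold and lost signal were thus not covered.

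Gene symbols came from RefSeq accessions of GRCm38.p6 (27224 probes named), while the array design lists mm9. For a gene with several probes, the probe with the largest difference was taken. Genes named are the members, list genes past 2-fold, the extremes of each list and Drd1, Slc6a3, Dbh, Gch1 and Slc18a1, and defining markers, apart from items that are not reported here; Gnai1 to Gnai3, Arrb2, Adra2a and the probes below -0.7 were named after their values were seen. The members, the lists and the blocks of the surface were chosen with earlier results of these data known. With 1 array a group, precision is limited by the number of arrays.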

Additional observations from a re-analysis of the deposited data

How the results depend on the processing

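The 11 member probes were recomputed under 7 other settings, and Ddc and Slc18a2 with their brightest probe, in all 79 values. Of these, 73 moved by less than the spot error and 0 reversed a called value. Many could hardly move. The floor under dim signals left all 11 probes unchanged, and the brightest probe was the one already taken. Keeping outlier spots and using the deposited values, also quantile normalized, changed them very little. Only Drd2 was called, so only its value could count as reversed. Scaling by the 75th percentile, which moves the median of all probes by -0.09, gave -0.20 for Drd3, -0.19 for Drd4, -0.13 for the NM_001190448 probe of Ddc, and -0.30 and -0.04176 for probes 1 and 2 of Slc18a2, each turned below 0 and short of 2-fold. Normexp gave -0.81 for Drd2 and 0 called member genes and 0 called member probes. Leaving out the blocks that lost signal, chosen after the data had been seen, also gave 0 and 0, since the Drd2 probe lies in them. The other settings each called 1 member gene, Drd2. The count of called pathway genes was 1, and became 3 with 75th percentile scaling, 2 with cyclic loess, 0 with normexp, 0 with a floor under dim signals, 0 with probes above background on both arrays and 4 with no background filter. The cause was not tested, apart from the filters, which change the probes counted. No paired analysis was possible because each group has 1 array.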
